A study of Homo sapiens with 27 samples.

Results

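The core autophagy machinery and its cargo receptors, 41 genes of the 27115 in each library, were chosen by name from a fixed list: the initiation kinase complex (6 genes), the class III PI3K complex (6), the WIPI and lipid transfer proteins (5), the conjugation enzymes and ATG4 proteases (11), the LC3 and GABARAP family (5), the cargo receptors (6), and a pair made of the fusion protein STX17 and the transcription factor FOXO3. All 41 were found in every library, ATG101 under its older symbol C12orf44. Their RNA was measured in 3 established diffuse large B-cell lymphoma (DLBCL) lines, Karpas422 (OXPHOS subtype), OCI-LY1 (germinal center B-cell-like) and HBL1 (activated B-cell-like). Each line carried a scramble control shRNA (shCtr) or one of a pair of shRNAs against SIRT3 (shSIRT3-1 and shSIRT3-2), a mitochondrial deacetylase. The control cells thus had the same lentiviral vector and selection as the knockdown cells. RNA was taken on day 8, with 3 libraries in each of 9 groups, 27 in all. No source used here says that replicates were separate cultures, so p-values measure the spread between these libraries.

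Autophagy encloses cytoplasm, organelles or tagged cargo in a double membrane and delivers it to lysosomes. The ULK1 complex starts the process when nutrients or energy run low, the class III PI3K complex makes the lipid that marks the growing membrane, and WIPI and ATG2 proteins bring lipid to it. A pair of ubiquitin-like conjugation systems attaches LC3 and GABARAP proteins to the membrane, where cargo receptors such as SQSTM1 (p62) and CALCOCO2 (NDP52) bind them, and STX17 serves the fusion with lysosomes. Lymphoma cells use the pathway to recycle amino acids and damaged mitochondria. RNA levels do not measure autophagic flux.

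Values are CPM, reads of a gene scaled to the library's total, and a difference was called at a fold over 1.5 and a Benjamini-Hochberg adjusted p under 0.05 over all genes tested, on the log2(CPM + 0.1) scale, which understates the change of low genes. Depth was 28694398 to 53405456 reads on genes per library. SIRT3 itself ranged from 9.14 to 16.4 CPM in the control libraries, from 1.06 to 2.79 with shSIRT3-1 and from 2.84 to 6.24 with shSIRT3-2, and over the 3 lines it fell to 18.3% and 38.8% of control. The knockdown thus was deeper with shSIRT3-1 (log2 difference between the shRNAs 1.08 ± 0.17, SE). All 6 B-cell markers were at 1 CPM or more in every library. T-cell markers summed to 18.6 to 43.5 CPM in Karpas422, nearly all CD3G, and to at most 2.82 CPM in the other lines. The libraries of HBL1 shSIRT3-1 replicate 3 and OCI-LY1 shCtr replicate 2 stood apart. The first correlated with its group mates at 0.955 and 0.961 across genes, while no other pair within a group was below 0.984. It was over 1.5 times both mates for 9 of the 41 genes (and for 13.0% of all genes tested) and under both by that factor for 1. In the second, 10 target genes of the transcription factor ATF4 summed to 1596 CPM, against 409 and 430 in its mates, and WIPI1, MAP1LC3B and CALCOCO2 were over 1.5 times both mates. Calls that were lost without either library are given with and without it, and members called only without it are not all named. Karpas422 shSIRT3-2 replicate 3 was over 1.5 times both mates for 5 members (ULK1, GABARAPL1, NBR1, OPTN and FOXO3) and for 5.2% of all genes tested. HBL1 shSIRT3-2 replicate 3 was so for 4 members and 3.83%. Neither of these was left out on its own.

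Over the 3 lines, SIRT3 knockdown left most autophagy RNAs within 1.5-fold of control, and the calls that were made were mainly losses. ULK1, the initiating kinase, and CALCOCO2, a receptor for bacteria and mitochondria, were lower with both shRNAs. WIPI1, MAP1LC3A, MAP1LC3B, STX17 and FOXO3 were also called lower, and ATG14 higher, with shSIRT3-1. With shSIRT3-1 there were 7 members called lower of 41, against 9.09% of all 13076 genes tested, and 1 called higher, against 3.92%. Without HBL1 shSIRT3-1 replicate 3 there were 8 lower and 0 higher, against 1054 and 453 of 13036 genes tested. With shSIRT3-2 there were 2 called lower, against 10.2%, and 0 called higher, against 3.29%. With both shRNAs in the same direction, 2 members were called lower, against 3.98% of all genes, and 0 higher, against 1.10%. The median log2 fold change of the 41 was -0.09 with shSIRT3-1 and -0.10 with shSIRT3-2, and that of all genes tested was -0.05 and -0.03. Where 0 members were called higher with shSIRT3-2 by limma, 4 had an unadjusted p under 0.05 and edgeR also called 0. In these bulk libraries, fewer cells of one kind and less RNA per cell cannot be told apart.

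**Figure D1:**
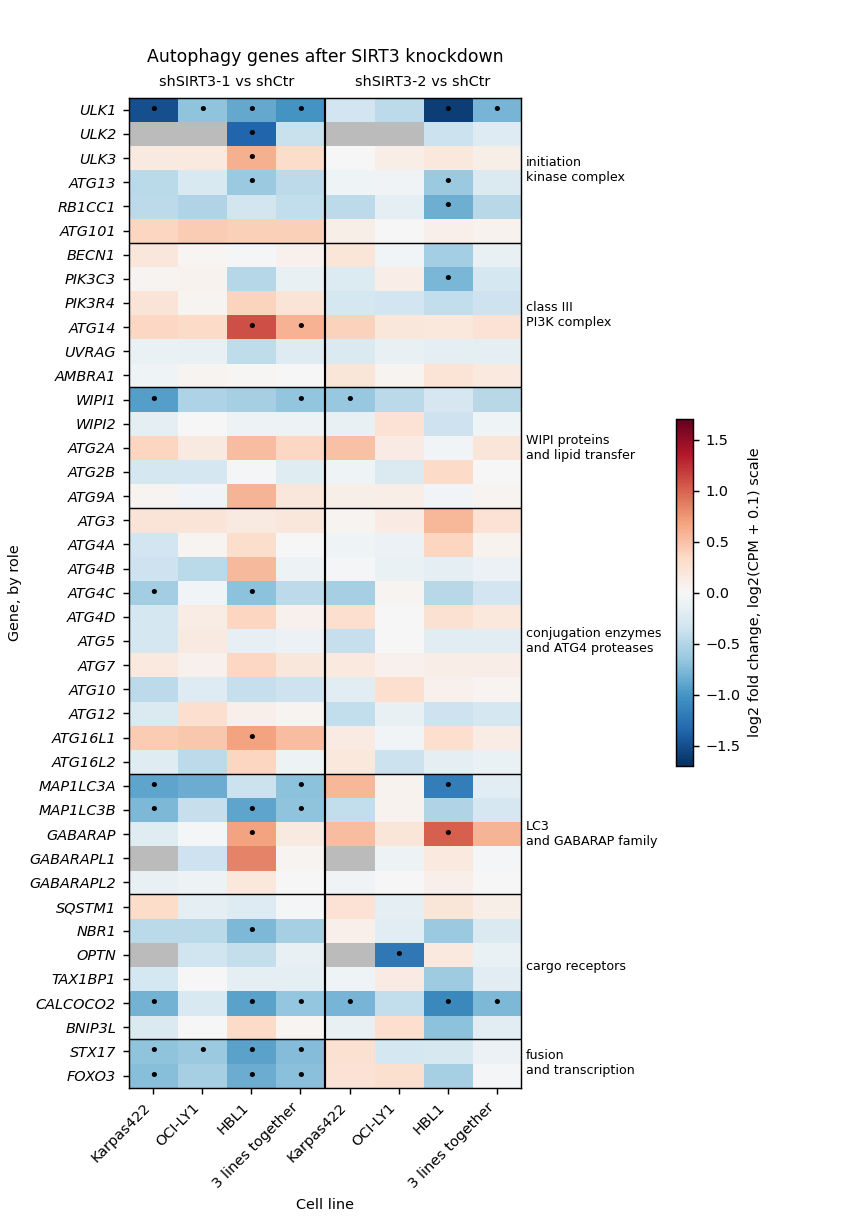
Log2 fold change against shCtr (color, log2(CPM + 0.1) scale) for each of the 41 genes (rows, by role) in each line and over the 3 lines together, for shSIRT3-1 (left) and shSIRT3-2 (right). Dots mark called differences and gray marks genes below the filter in that line. The ULK1 and CALCOCO2 rows are blue throughout, and the OCI-LY1 columns hold 2 and 1 dots.

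The lines differed in how many members were called. Karpas422 had 38 members past the filter of 1 CPM in at least 3 libraries, of which 8 were lower with shSIRT3-1 (11.5% of all genes tested) and 2 with shSIRT3-2 (9.44%), and 0 were higher with either (4.45% and 5.55%). OCI-LY1 had 40 past it, of which 2 were lower with shSIRT3-1 (2.45%), 1 was lower with shSIRT3-2 (4.26%), and 0 were higher (2.04% and 2.15%). At an unadjusted p under 0.05 in limma, 4 and 5 members were higher in Karpas422 and 3 and 0 in OCI-LY1, and edgeR called 0 higher in all 4 comparisons. HBL1 had all 41, and 9 were lower and 4 higher with shSIRT3-1 (18.8% and 8.83%), while 6 were lower and 1 higher with shSIRT3-2 (16.0% and 7.51%). With shSIRT3-1 they were 6 and 7 under quantile normalization, against 1632 and 1740 of 11862 genes tested. They were 7 and 7 under median-ratio scaling, against 1809 and 1432, and 6 and 7 with edgeR, against 1727 and 1509. Without HBL1 shSIRT3-1 replicate 3 they were 11 and 2, against 2237 and 934 of 11778 genes tested. With shSIRT3-2 they were then 9 and 1, against 2242 and 1122. ULK2, GABARAPL1 and OPTN were not tested in Karpas422, nor was ULK2 in OCI-LY1. A test of the difference in response between lines passed at an adjusted p under 0.05 for 19 of 41 members, against 41.8% of all genes. That count was 0 when replicate 1 was left out of every group and 8 when replicate 2 was. Over all genes it was then 348 of 12860 and 2011 of 12804.

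The direction of calls over all genes depended on scaling. Quantile normalization lowered the share of calls that were lower from 69.9% to 54.6% with shSIRT3-1 and from 75.6% to 57.4% with shSIRT3-2 over the 3 lines. In HBL1 it moved the share from 68% to 48.4% and 49.6% with shSIRT3-1 and shSIRT3-2, and in Karpas422 with shSIRT3-1 from 72.1% to 53%. The median log2 change of all genes with shSIRT3-1 moved under it from -0.08 to 0.02 in Karpas422 and from -0.10 to 0.04 in HBL1. Of the 45 member calls made with the lines fitted together or within a line, 0 changed sign under any alternative, 11 missed the threshold under quantile normalization and 6 under median-ratio scaling.

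Promoter windows, 250 bases before to 50 after the start in RefSeq on GRCh38.p14, were matched for 35 of the 41 members and searched on both strands for motifs of factors tied to autophagy genes. CACGTG, the E-box read by the TFEB family, stood in 3 members (ULK3, ATG14 and ATG3) and in 7.43% of 27305 promoters. GTAAACA, the forkhead motif read by FOXO factors, stood in 1 (CALCOCO2) and in 3.41%. TGATGNAA, the element read by ATF4 with its partners, stood in 0 of 35 and in 3.67%. The sites are shown because ATG14 and CALCOCO2 were called over the 3 lines, ULK3 was called in HBL1 and ATG3 holds a pair of E-boxes. Capitals mark the motif, and each is read from 5′ to 3′.
ATG14 (chr14:55411836-55411861, minus strand): aacaaaatccCACGTGactggctctc
ATG3 (chr3:112561965-112561990, minus strand): tttctcacgtCACGTGccgggagagt
ATG3 (chr3:112561942-112561967, minus strand): agtctagtgtCACGTGaggccccggt
ULK3 (chr15:74843313-74843338, minus strand): tccgtatcccCACGTGggccctgcag
CALCOCO2 (chr17:48830799-48830825, plus strand): aaaaagaaaaGTAAACAgcttcttcca
A match describes these letters and is not a shown binding site.

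In the initiation complex, ULK1 (hg19 chr12:132379167-132407695, plus strand), the kinase that phosphorylates its partners to start autophagy, was the member with the deepest loss over the lines. In Karpas422, ULK1 stood at 9.87, 12.9 and 11.97 CPM in the shCtr libraries, at 3.71, 4.45 and 4.01 with shSIRT3-1 and at 8.26, 7.40 and 12.6 with shSIRT3-2. In OCI-LY1, ULK1 was at 21.6, 33.1 and 24.9 CPM with shCtr, 16.8, 14.4 and 17.8 with shSIRT3-1 and 18.9, 16.7 and 22.0 with shSIRT3-2. In HBL1, ULK1 was at 19.7, 21.8 and 27.2 CPM with shCtr, 9.82, 10.4 and 18.7 with shSIRT3-1 and 6.56, 6.38 and 9.70 with shSIRT3-2. Every shSIRT3-1 library was below every control library of its line in all 3 lines, whereas the shSIRT3-2 libraries overlapped their controls in Karpas422 and OCI-LY1 and were clear of them in HBL1. With the lines fitted together, ULK1 fell to 49.7% of control with shSIRT3-1 (log2 -1.01 ± 0.21, SE, adjusted p = 0.00042) and to 57.8% with shSIRT3-2 (-0.79 ± 0.21, adjusted p = 0.0038). The second call was lost without HBL1 and without replicate 2 (-0.60, adjusted p = 0.15). Within lines the calls with shSIRT3-1 were -0.87 in HBL1, -1.49 in Karpas422 and -0.68 in OCI-LY1, and HBL1 was also called with shSIRT3-2 (-1.60). The OCI-LY1 call was lost in 6 of 12 alternatives, among them without shCtr replicate 2 (-0.51, adjusted p = 0.092). The HBL1 call with shSIRT3-1 was -1.16 without shSIRT3-1 replicate 3. It was lost in 5 of 12 alternatives, among them quantile normalization, median-ratio scaling and edgeR (-0.71, adjusted p = 0.076). The HBL1 call with shSIRT3-2 was lost without replicate 1 (-1.62, adjusted p = 0.064) and without replicate 2 (-1.52, adjusted p = 0.069). Responses differed between lines (adjusted p = 0.0013).

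ATG13 (hg19 chr11:46639077-46696368, plus strand), the adaptor that links ULK1 to the rest of its complex, was lower with both shRNAs in HBL1. There, ATG13 was at 55.3, 59.3 and 65.8 CPM with shCtr, at 37.9, 37.8 and 40.4 with shSIRT3-1 and at 37.5, 35.0 and 44.6 with shSIRT3-2, and neither knockdown group overlapped the controls. In Karpas422, ATG13 was at 62.7, 61.6 and 60.7 CPM with shCtr, 48.2, 47.5 and 39.5 with shSIRT3-1 and 54.6, 54.9 and 67.9 with shSIRT3-2. In OCI-LY1, ATG13 was at 61.0, 69.3 and 55.1 CPM with shCtr, 51.4, 50.7 and 52.4 with shSIRT3-1 and 56.9, 63.2 and 56.7 with shSIRT3-2. With shSIRT3-1 the libraries of each line lay below all controls of that line, and outside HBL1 the fold stayed under 1.5. The HBL1 changes were -0.63 ± 0.11 with each shRNA (adjusted p = 0.0028 and 0.0034), and both calls were lost under median-ratio scaling (-0.53 and -0.56), under the fold required.

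Of the other 4 initiation genes, 3 were called, each in HBL1 with 1 shRNA. Of all 11862 genes tested in HBL1, 3280 were called with shSIRT3-1 and 2786 with shSIRT3-2. ULK2, the kinase closest to ULK1, was lower there with shSIRT3-1 (-1.35 ± 0.24, adjusted p = 0.0027), and ULK3, a relative with roles outside starvation-induced autophagy, was higher (0.61, adjusted p = 0.024), a call lost without shSIRT3-1 replicate 3 (0.46, adjusted p = 0.042). RB1CC1 (FIP200), the scaffold of the complex, was lower with shSIRT3-2 in HBL1 (-0.83 ± 0.15, adjusted p = 0.0038). Over the 3 lines it was at -0.42 and -0.47 with small p-values (0.0019 and 0.00077), under the fold required. ATG101, which stabilizes ATG13, was at 0.40 with shSIRT3-1 (adjusted p = 4.6e-05) and 0.06 with shSIRT3-2 over the lines, again under the fold required.

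In the class III PI3K complex, ATG14 (hg19 chr14:55833109-55878548, minus strand), the subunit that sends the kinase to sites of autophagosome formation, was the only member called higher with the lines fitted together. The E-box printed for it lies in its promoter window. In HBL1, ATG14 was at 9.69, 9.83 and 11.9 CPM with shCtr, 18.9, 15.0 and 39.7 with shSIRT3-1 and 10.7, 10.8 and 14.1 with shSIRT3-2. In Karpas422, ATG14 was at 17.1, 18.9 and 17.2 CPM with shCtr, 22.4, 18.1 and 28.5 with shSIRT3-1 and 22.0, 20.8 and 27.4 with shSIRT3-2. In OCI-LY1, ATG14 was at 10.1, 11.6 and 10.8 CPM with shCtr, 11.3, 19.0 and 11.5 with shSIRT3-1 and 11.8, 11.9 and 13.3 with shSIRT3-2. All 18 knockdown libraries were above the mean of their controls, and the highest by far was HBL1 shSIRT3-1 replicate 3. For all lines the change with shSIRT3-1 was 0.59 ± 0.16 (adjusted p = 0.0052), and without that library it was 0.43 (adjusted p = 0.0032), under the fold required. It was also lost without HBL1 (0.34, adjusted p = 0.052) and at a pseudocount of 1. In HBL1 alone the call held without it (1.10 with and 0.69 without, adjusted p = 0.023 and 0.0092). With shSIRT3-2 the change was 0.25 ± 0.16 (adjusted p = 0.22).

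PIK3C3 (VPS34), the catalytic subunit, was lower in HBL1 with shSIRT3-2 (-0.78 ± 0.10, adjusted p = 0.00085). Its libraries there were at 34.8, 34.1 and 30.8 CPM against 58.4, 58.0 and 54.8 with shCtr, and its responses differed between lines (adjusted p = 0.0013). BECN1 (Beclin 1), the regulatory subunit, was in the same cells at 27.9, 29.4 and 26.6 CPM against 41.9, 43.0 and 40.2 with shCtr (-0.58, adjusted p = 0.001), just short of the fold of 1.5, and it had the smallest p among members for a difference between lines (0.0011). CNTD1, on the opposite strand, overlaps 37.7% of the BECN1 transcript, and the kit named in the methods does not mark strand. PIK3R4 (VPS15), the membrane anchor, lay below all controls of its line with shSIRT3-2 in each of the 3 lines and above them with shSIRT3-1 in 2. Its values over the lines were -0.35 and 0.22. UVRAG and AMBRA1, alternative partners of BECN1, stayed between -0.22 and 0.16 over the lines.

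Among the WIPI and lipid transfer genes, WIPI1 (hg19 chr17:66417089-66453654, minus strand), a sensor of the PI3K product, was the one that limma called over the 3 lines. In Karpas422, WIPI1 was at 15.3, 23.9 and 15.4 CPM with shCtr, 9.04, 9.25 and 9.45 with shSIRT3-1 and 10.5, 10.1 and 13.8 with shSIRT3-2. In OCI-LY1, WIPI1 was at 18.8, 38.7 and 19.9 CPM with shCtr, 16.2, 16.9 and 17.7 with shSIRT3-1 and 16.5, 19.5 and 17.2 with shSIRT3-2. In HBL1, WIPI1 was at 11.9, 13.8 and 16.7 CPM with shCtr, 8.91, 8.05 and 11.9 with shSIRT3-1 and 10.5, 9.59 and 14.8 with shSIRT3-2. Both knockdown groups were clear of the controls in Karpas422, where the calls were -0.94 ± 0.18 and -0.64 ± 0.18 (adjusted p = 0.0045 and 0.024). Both calls were lost without replicate 1 (-1.03 and -0.70, adjusted p = 0.051 and 0.13). The shSIRT3-2 call was also lost without replicate 2 (-0.34, adjusted p = 0.21). For WIPI1, Karpas422 shCtr replicate 2 was over 1.5 times both mates. With the lines fitted together, WIPI1 fell to 62.8% of control with shSIRT3-1 (-0.67 ± 0.13, adjusted p = 0.00025), or -0.59 without OCI-LY1 shCtr replicate 2. This call was lost without replicate 2 of every group (-0.46, adjusted p = 0.019), without Karpas422 (-0.54) and under quantile normalization (-0.58). WIPI1 was at -0.47 with shSIRT3-2 (adjusted p = 0.0066), under the fold required. WIPI2, ATG2B and ATG9A stayed between -0.21 and 0.19 over the lines. ATG2A, one of a pair of lipid transfer proteins, was at 0.35 and 0.20. In HBL1 with shSIRT3-1, ATG2A (0.53, adjusted p = 0.012) and ATG9A (0.58, adjusted p = 0.068) were not called by limma, whereas edgeR called both higher. ATG9A was there at 61.8 CPM in replicate 3, against 35.1 and 31.7 in its mates.

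The conjugation enzymes and ATG4 proteases gave 0 of 11 calls over the 3 lines with either shRNA, by limma and by edgeR. Over all 13076 genes tested, limma called 1701 with shSIRT3-1 and 1760 with shSIRT3-2. At an unadjusted p under 0.05 there were 5 with shSIRT3-1 and 4 with shSIRT3-2, against 47% of all genes tested with each shRNA. ATG4C (hg19 chr1:63249803-63331187, plus strand), one of 4 proteases that trim LC3 and GABARAP proteins, was at -0.45 and -0.33 over the lines and was called within 2 of them. In Karpas422, ATG4C was at 11.4, 11.0 and 10.3 CPM with shCtr, 6.56, 7.99 and 7.12 with shSIRT3-1 and 7.05, 7.81 and 7.13 with shSIRT3-2. In OCI-LY1, ATG4C was at 16.4, 17.4 and 14.4 CPM with shCtr, 15.6, 14.8 and 16.2 with shSIRT3-1 and 16.3, 15.6 and 17.8 with shSIRT3-2. In HBL1, ATG4C was at 21.1, 20.4 and 18.9 CPM with shCtr, 11.4, 11.5 and 14.3 with shSIRT3-1 and 13.0, 12.7 and 18.6 with shSIRT3-2. The knockdown groups lay below their controls in Karpas422 and HBL1 and among them in OCI-LY1, and the difference between lines passed its test (adjusted p = 0.021). The calls were -0.59 in Karpas422 and -0.70 in HBL1, both with shSIRT3-1 (adjusted p = 0.0038 and 0.01). The Karpas422 call was lost at a pseudocount of 1 (-0.53) and under median-ratio scaling (-0.51), and the HBL1 call under quantile normalization (-0.58).

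ATG5 (hg19 chr6:106493298-106773666, minus strand), which joins ATG12 and ATG16L1 in the enzyme that lipidates LC3, was not called in any comparison of knockdown with control. In Karpas422, ATG5 was at 39.2, 37.1 and 37.5 CPM with shCtr, 32.0, 33.1 and 27.7 with shSIRT3-1 and 28.3, 31.7 and 26.7 with shSIRT3-2. In OCI-LY1, ATG5 was at 25.5, 23.0 and 19.0 CPM with shCtr, 25.1, 23.6 and 25.7 with shSIRT3-1 and 23.0, 22.4 and 21.6 with shSIRT3-2. In HBL1, ATG5 was at 28.1, 29.2 and 24.6 CPM with shCtr, 25.6, 25.3 and 23.3 with shSIRT3-1 and 25.0, 24.0 and 22.7 with shSIRT3-2. Only in Karpas422 were the knockdown libraries below all controls, at 81.4% and 76.1% of control. Its partner ATG16L1 lay above all controls with shSIRT3-1 in each of the 3 lines (0.53 over the lines, adjusted p = 1.1e-06, under the fold required) and was called in HBL1 (0.69, adjusted p = 0.0017). ATG12 was below all controls with shSIRT3-2 in each of the 3 lines, at -0.30 (adjusted p = 0.0039). ATG3 and ATG7, the E2-like and E1-like enzymes for LC3, were at 0.19 to 0.25 and at 0.11 to 0.19 over the lines. ATG10, ATG16L2 and the other ATG4 proteases were not called by limma in any line, with values over the lines between -0.35 and 0.18, and edgeR called ATG4B higher in HBL1 with shSIRT3-1 (0.55 in limma, adjusted p = 0.068). ATG4B was there at 67.1 CPM in replicate 3, against 37.1 and 36.2 in its mates. edgeR also called ATG3 higher in HBL1 with shSIRT3-2.

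In the LC3 and GABARAP family, calls went in both directions. MAP1LC3B (hg19 chr16:87417559-87438385, plus strand), the source of the standard autophagosome marker, was lower with shSIRT3-1. In Karpas422, MAP1LC3B was at 71.9, 105 and 68.4 CPM with shCtr, 45.9, 43.7 and 52.4 with shSIRT3-1 and 55.8, 51.3 and 75.2 with shSIRT3-2. In OCI-LY1, MAP1LC3B was at 50.3, 77.96 and 49.97 CPM with shCtr, 43.1, 45.5 and 44.4 with shSIRT3-1 and 55.4, 73.1 and 55.2 with shSIRT3-2. In HBL1, MAP1LC3B was at 48.4, 58.0 and 56.7 CPM with shCtr, 33.2, 31.8 and 23.1 with shSIRT3-1 and 39.4, 33.5 and 41.5 with shSIRT3-2. With shSIRT3-1 the groups did not overlap the controls in any line, and with shSIRT3-2 this held in HBL1. With the lines fitted together, MAP1LC3B fell to 62.2% of control with shSIRT3-1 (-0.69 ± 0.11, adjusted p = 5e-05) and was at 81.8% with shSIRT3-2 (-0.29 ± 0.11, adjusted p = 0.047), under the fold required. The shSIRT3-1 call was -0.66 without OCI-LY1 shCtr replicate 2 and was lost without replicate 2 of every group (-0.54) and without HBL1 (-0.58). Within lines it was called with shSIRT3-1 in Karpas422 (-0.77, adjusted p = 0.011) and HBL1 (-0.90, adjusted p = 0.0025). Its near-identical copy MAP1LC3B2, at 3.34 to 12.1 CPM, may share reads with it, so the split between them is uncertain. MAP1LC3A, at 0.771 to 5.65 CPM, was called lower with shSIRT3-1 over the lines (-0.70 ± 0.28, adjusted p = 0.046), a call lost in 13 of 18 alternatives. Without OCI-LY1 shCtr replicate 2 it was at -0.69 (adjusted p = 0.068). Its calls within lines were -0.90 in Karpas422 with shSIRT3-1 and -1.18 in HBL1 with shSIRT3-2, the first lost in 6 of 11 alternatives, among them quantile normalization (-0.75), median-ratio scaling and edgeR, and the second in 4 of 12, among them quantile normalization (-0.77).

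GABARAP (hg19 chr17:7143327-7145768, minus strand), which acts late in autophagosome closure, rose in HBL1. There, GABARAP was at 34.7, 33.8 and 39.8 CPM with shCtr, 54.2, 50.1 and 72.0 with shSIRT3-1 and 69.6, 63.1 and 87.0 with shSIRT3-2, all knockdown libraries above all controls. In Karpas422, GABARAP was at 70.3, 76.7 and 62.7 CPM with shCtr, 62.3, 64.9 and 54.8 with shSIRT3-1 and 91.1, 91.3 and 120.5 with shSIRT3-2. In OCI-LY1, GABARAP was at 99.5, 97.7 and 95.2 CPM with shCtr, 96.5, 90.7 and 100.2 with shSIRT3-1 and 108, 123 and 105 with shSIRT3-2. The shSIRT3-2 libraries were above all controls in each of the 3 lines. The HBL1 changes were 0.69 ± 0.16 (adjusted p = 0.011) and 1.01 ± 0.16 (adjusted p = 0.0022). The first was lost without shSIRT3-1 replicate 3 (0.53, adjusted p = 0.013). For all lines the value with shSIRT3-2 was 0.58 ± 0.12 (adjusted p = 0.00039), just under the fold of 1.5 and past it without OCI-LY1 shCtr replicate 2 (0.60). The lines differed (adjusted p = 0.0027). A read-through gene model on the same strand overlaps 52.4% of its transcript. GABARAPL2 was between -0.01 and 0.01 over the lines, and GABARAPL1 between -0.02 and 0.04. In HBL1 shSIRT3-1, GABARAPL1 was at 11.8 and 9.60 CPM in 2 libraries and at 68.8 in replicate 3.

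Per kilobase of transcript, the make-up of the family differed from control in HBL1 and Karpas422. GABARAPL2 made 47.5% of the summed CPM per kb of the 5 genes in HBL1 control cells, GABARAP 23.4% and MAP1LC3B 21.7%. With shSIRT3-1 GABARAP made 32.3% (29.3 to 34.0 over the libraries) and MAP1LC3B 10.5% (5.78 to 13.2), or 33.7% and 12.9% without replicate 3. With shSIRT3-2 they made 39.5% (38.1 to 41.2) and 12.7% (12.1 to 13.2). These ranges did not overlap those of the control libraries, 21.9 to 24.6 for GABARAP and 20.9 to 23.2 for MAP1LC3B. In Karpas422 the MAP1LC3B share was 22.7% in control cells (20.9 to 26.1), 16.3% with shSIRT3-1 (14.5 to 18.5) and 15.8% with shSIRT3-2 (14.4 to 17). The GABARAP share there was 31.9% (31 to 33.7) in control cells and 42.7% (41.8 to 44.4) with shSIRT3-2, while with shSIRT3-1 it overlapped control (31.5 to 35.3). In OCI-LY1 the MAP1LC3B share was 14.1%, 12% and 13.9%, and the ranges overlapped. These shares were not tested.

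**Figure D2:**
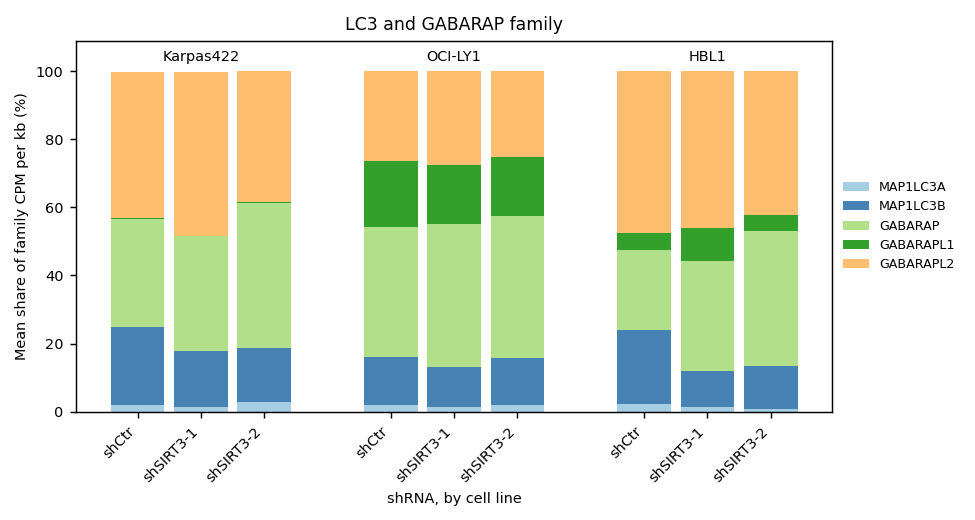
Mean share of each of the 5 LC3 and GABARAP genes in their summed CPM per kilobase of transcript (%), by line and shRNA (3 libraries a bar). In HBL1 the GABARAP segment goes from 23.4% with shCtr to 32.3% and 39.5% with the SIRT3 shRNAs, and the MAP1LC3B segment from 21.7% to 10.5% and 12.7%.

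Of the cargo receptors, CALCOCO2 (hg19 chr17:46908380-46943884, plus strand) was below the mean of its controls in 18 of 18 knockdown libraries. In Karpas422, CALCOCO2 was at 64.3, 58.5 and 61.0 CPM with shCtr, 39.5, 37.8 and 29.0 with shSIRT3-1 and 36.4, 34.5 and 35.4 with shSIRT3-2. In OCI-LY1, CALCOCO2 was at 17.7, 29.2 and 17.3 CPM with shCtr, 16.4, 17.4 and 18.1 with shSIRT3-1 and 14.8, 16.0 and 15.6 with shSIRT3-2. In HBL1, CALCOCO2 was at 62.2, 67.8 and 68.5 CPM with shCtr, 32.7, 32.2 and 41.4 with shSIRT3-1 and 31.2, 29.6 and 31.7 with shSIRT3-2. In Karpas422 and HBL1 both knockdown groups were clear of the controls, and in OCI-LY1 only shSIRT3-2 was. With the lines fitted together, CALCOCO2 fell to 63.5% with shSIRT3-1 (-0.66 ± 0.10, adjusted p = 2.4e-05) and to 58.7% with shSIRT3-2 (-0.77 ± 0.10, adjusted p = 3.9e-06), -0.62 and -0.74 without OCI-LY1 shCtr replicate 2. The shSIRT3-1 call was lost without replicate 2 (-0.58), without Karpas422 (-0.58) and without HBL1 (-0.53), with adjusted p from 0.0044 to 0.0084, and the shSIRT3-2 call was kept in all 18 alternatives (-0.94 to -0.61). The line calls were -0.80 and -0.79 in Karpas422 and -0.91 and -1.10 in HBL1, while in OCI-LY1 the values were -0.26 and -0.42 (adjusted p = 0.37 and 0.15). The lines differed (adjusted p = 0.041).

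SQSTM1 (hg19 chr5:179233398-179265078, plus strand), the receptor for ubiquitin-tagged protein, was not called in any comparison of knockdown with control. In Karpas422, SQSTM1 was at 70.5, 102 and 62.0 CPM with shCtr, 87.3, 80.6 and 120.3 with shSIRT3-1 and 85.4, 81.8 and 107 with shSIRT3-2. In OCI-LY1, SQSTM1 was at 49.2, 62.3 and 47.1 CPM with shCtr, 47.4, 50.02 and 44.8 with shSIRT3-1 and 46.0, 50.4 and 44.7 with shSIRT3-2. In HBL1, SQSTM1 was at 249.9, 247 and 257 CPM with shCtr, 198, 140.2 and 361 with shSIRT3-1 and 322, 259 and 296 with shSIRT3-2. Values were high with shSIRT3-2 in HBL1, above all 3 controls, while those with shSIRT3-1 lay on both sides of them. Over the lines the values were -0.02 ± 0.14 and 0.10 ± 0.14. The antisense gene MRNIP overlaps 21.5% of its transcript, again without strand to part them. Among the other receptors, NBR1, which also binds ubiquitin, was at -0.56 over the lines with shSIRT3-1 (adjusted p = 0.00053, under the fold required) and was lower in HBL1 (-0.77, adjusted p = 0.023). OPTN was lower with shSIRT3-2 in OCI-LY1 (-1.21 ± 0.21, adjusted p = 0.015), where it was at 3.63, 2.58 and 3.64 CPM against 7.98, 9.24 and 6.04. This call was lost without replicate 1 (-1.26, adjusted p = 0.07) and without replicate 3 (-1.46, adjusted p = 0.23). TAX1BP1 and BNIP3L were uncalled, between -0.18 and 0.03 over the lines.

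STX17 (hg19 chr9:102668936-102736816, plus strand), the autophagosomal SNARE, and FOXO3, a transcription factor of autophagy genes, separated the shRNAs. In Karpas422, STX17 was at 24.5, 22.6 and 23.8 CPM with shCtr, 15.4, 15.8 and 13.2 with shSIRT3-1 and 24.6, 26.6 and 34.7 with shSIRT3-2. In OCI-LY1, STX17 was at 25.2, 23.5 and 25.0 CPM with shCtr, 17.7, 13.2 and 16.8 with shSIRT3-1 and 19.9, 19.6 and 20.4 with shSIRT3-2. In HBL1, STX17 was at 40.3, 44.2 and 42.8 CPM with shCtr, 19.5, 20.3 and 29.1 with shSIRT3-1 and 33.6, 35.4 and 36.9 with shSIRT3-2. Every shSIRT3-1 library was below every control of its line, and the shSIRT3-2 libraries were above the controls in Karpas422 and below them in the other lines. With the lines fitted together, STX17 fell to 59.9% with shSIRT3-1 (-0.74 ± 0.10, adjusted p = 2.4e-06), and was at 93.2% with shSIRT3-2 (adjusted p = 0.43). It was called with shSIRT3-1 in each line (-0.68, -0.63 and -0.91 in Karpas422, OCI-LY1 and HBL1). The Karpas422 call was lost under quantile normalization (-0.57) and without replicate 1 (-0.68, adjusted p = 0.064). The OCI-LY1 call was lost when any one replicate number was left out (-0.70 to -0.54). The HBL1 call was lost without replicate 1 (-0.84, adjusted p = 0.068) and without replicate 2 (-0.80, adjusted p = 0.065). FOXO3 was called in Karpas422 (-0.73) and HBL1 (-0.84) with shSIRT3-1, the first lost in 5 of 11 alternatives, among them quantile normalization (-0.56) and edgeR. Over the lines it fell to 61.0% with shSIRT3-1 (-0.71 ± 0.14, adjusted p = 0.00021) and was at 98.6% with shSIRT3-2 (adjusted p = 0.92). Compared directly, shSIRT3-2 was above shSIRT3-1 for STX17 (0.64 ± 0.10, adjusted p = 1.9e-05) and FOXO3 (0.69 ± 0.14, adjusted p = 0.00039), the 2 members of 41 called between the shRNAs, against 11.3% of all genes. Without HBL1, 4 members were called between the shRNAs, against 862 of 12131 genes tested. The calls of STX17 and FOXO3 were both lost without Karpas422 (0.49 and 0.55), that of STX17 also under quantile normalization (0.58). Both calls held without replicate 3 of every group. For FOXO3, Karpas422 shSIRT3-2 replicate 3 was over 1.5 times both mates. FOXO3B, a close copy of FOXO3 at 0.882 to 5.49 CPM, may share its reads.

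**Figure D3:**
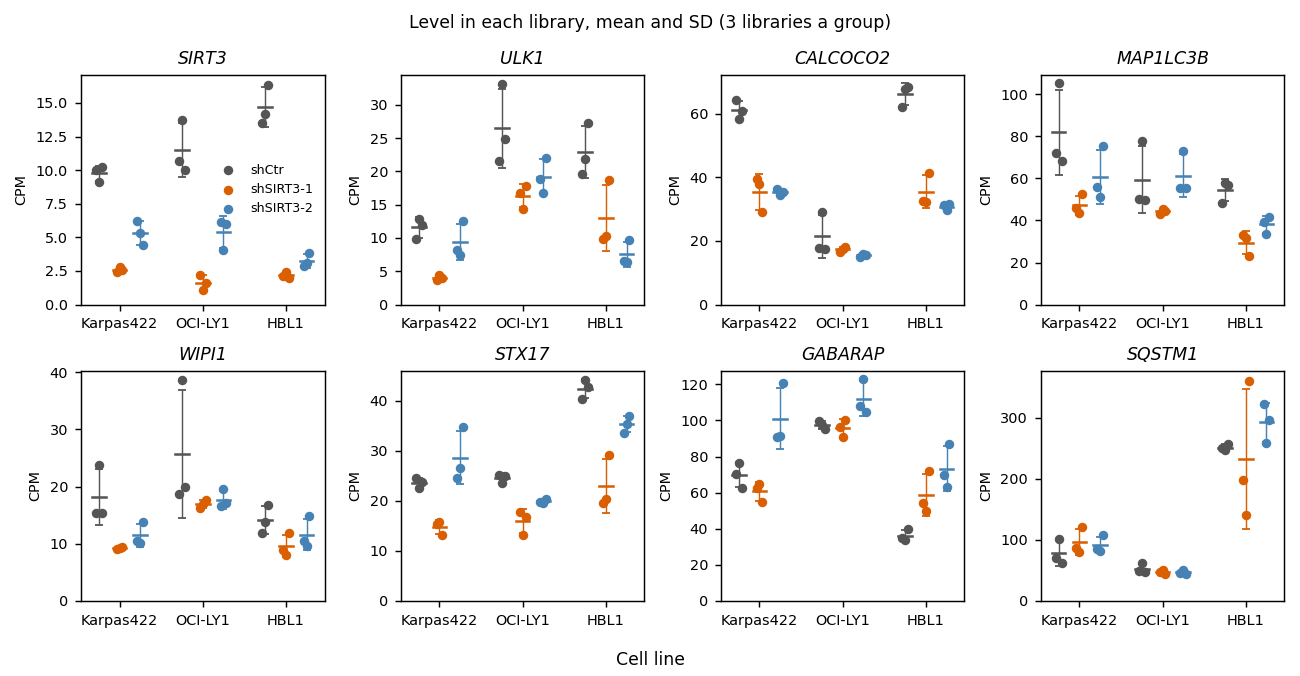
CPM of SIRT3 and 7 autophagy genes in each library (points), by line and shRNA, with the mean (horizontal line) and SD (bar) of 3 libraries. CALCOCO2 falls with both shRNAs in Karpas422 and HBL1, STX17 falls with shSIRT3-1 in all 3 lines, GABARAP rises in HBL1, and 1 SQSTM1 library of HBL1 shSIRT3-1 stands at 361 CPM against 198 and 140.2.

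Values of the ATF4 program moved beside these losses. The 10 ATF4 targets were ASNS, PSAT1, PHGDH, CHAC1, TRIB3, SESN2, DDIT4, VLDLR, SLC7A11 and DDIT3. They summed to 1487 to 1597 CPM in Karpas422 controls and 1409 to 1491 in HBL1 controls. In the knockdown libraries they summed to 198 to 439 CPM in Karpas422 and to 149.9 to 286 in HBL1. In OCI-LY1 they were at 409, 1596 and 430 CPM with shCtr, 275, 246 and 303 with shSIRT3-1 and 343, 203 and 449 with shSIRT3-2. ATF4 RNA itself was at -0.91 and -1.03 over the lines. The part of ATF4 in the autophagy values was not tested.

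Other genes of the pathway were read from a hand-written list of 64, of which 57 were tested over the 3 lines. RTN3 and CCPG1 were called lower with shSIRT3-1. With shSIRT3-2, WDR45 and CCPG1 were called lower and LAMP1, LAMP2 and EI24 higher. Their median was 0.02 with shSIRT3-1 and 0.08 with shSIRT3-2. CCPG1, a receptor for autophagy of the endoplasmic reticulum, was the one called in the same direction with both shRNAs, at 36.4% and 44.2% of control (-1.46 ± 0.22 and -1.18 ± 0.22, adjusted p = 1.1e-05 and 0.00016). In the lysosomal fusion group of 13, LAMP1 (0.71) and LAMP2 (0.81), the main lysosomal membrane proteins, were the members called with shSIRT3-2. With shSIRT3-1 these were at 0.02 and 0.41. The median over the 13 was 0.17 with shSIRT3-1 and 0.28 with shSIRT3-2. Of 12 upstream signaling genes tested, 6 with shSIRT3-1 and 5 with shSIRT3-2 had an unadjusted p under 0.05, against 47% of all genes tested. Of the 12, 0 were called by limma or edgeR, while limma called 1701 and 1760 of all 13076 genes. TFEB, a master regulator of lysosomal genes, was at 0.09 and -0.29 over the lines, and it was called lower in HBL1 with shSIRT3-2 (-0.71, adjusted p = 0.004). Its response differed between lines (adjusted p = 0.027).

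Among the scramble control cells of day 8, the lines differed in their autophagy genes. Of the 41, 17 were called between OCI-LY1 and Karpas422 controls (50.8% of all genes), 16 between HBL1 and Karpas422 (54.6%) and 22 between HBL1 and OCI-LY1 (54.6%), and none of these member counts exceeded the share of all genes. ULK2 was at 8.82, 9.43 and 11.8 CPM in HBL1 controls and at no more than 0.0304 CPM in those of the other lines, where it was listed at 0 in 2 libraries. GABARAPL1 was at 53.8, 91.0 and 73.0 CPM in OCI-LY1, against 0.319, 0.861 and 0.631 in Karpas422 and 9.38, 12.1 and 11.96 in HBL1, and no groups overlapped.

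OPTN, a receptor for damaged mitochondria, was at 80.1, 83.7 and 61.3 CPM in HBL1, 7.98, 9.24 and 6.04 in OCI-LY1 and 0.628, 0.709 and 0.436 in Karpas422. SQSTM1 at 251 ± 5.0 CPM (SD, n = 3) in HBL1 was above OCI-LY1 (52.9 ± 8.20) by 2.26 on the log2 scale (adjusted p = 1e-06) and above Karpas422 (78.2 ± 21.1) by 1.71. ATG16L2, a relative of ATG16L1, was at 20.6, 21.6 and 30.3 CPM in OCI-LY1, 4.12, 4.81 and 3.42 in Karpas422 and 4.68, 4.75 and 4.90 in HBL1. OCI-LY1 thus stood clear of the others for it, while Karpas422 and HBL1 were not called apart. PIK3C3 was at 58.4, 57.99 and 54.8 CPM in HBL1, 29.6, 29.0 and 29.6 in Karpas422 and 22.9, 19.7 and 18.4 in OCI-LY1. ATG2B was at 120.2, 143 and 112 CPM in Karpas422, above 56.6, 57.8 and 46.4 in HBL1 and 45.3, 71.4 and 50.1 in OCI-LY1, which overlapped. FOXO3 was at 13.5, 16.9 and 17.4 CPM in OCI-LY1, against 5.99, 6.10 and 7.84 in Karpas422 and 8.95, 10.2 and 10.97 in HBL1, and it was called between each pair of lines. CALCOCO2 was low in OCI-LY1 (21.4 ± 6.77 CPM, against 61.2 and 66.2). Set per kilobase of transcript, so that genes could be ranked, GABARAPL2 led in Karpas422 (71.4 ± 4.4 CPM per kb), GABARAP in OCI-LY1 (73.9 ± 1.7) and SQSTM1 in HBL1 (88.4 ± 1.8).

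**Figure D4:**
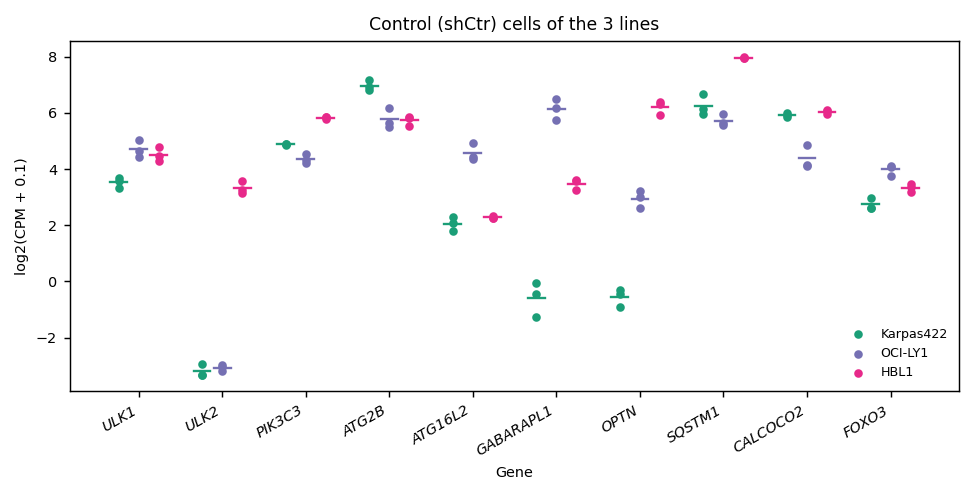
Level (log2(CPM + 0.1)) of 10 autophagy genes in the control (shCtr) libraries of the 3 lines, 3 points a line with their mean. ULK2 sits near the floor in Karpas422 and OCI-LY1 and at 8.82 to 11.8 CPM in HBL1, while GABARAPL1 is highest in OCI-LY1 and OPTN in HBL1.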

How the data were processed

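Total RNA libraries (TruSeq kit, random-primed, not strand-marking) were aligned by the authors with STAR to hg19 and counted on RefSeq genes with Rsubread. The deposited values are labelled FPKM, but in every library they are whole multiples of one step for genes of any length (100% of values whole within 0.01 of a read), so they were used as CPM. Whole reads recovered from them gave the depth and served edgeR. They are less certain for 2 OCI-LY1 libraries, replicate 3 of shCtr and replicate 1 of shSIRT3-2. Gene reads made 40.3% to 45.6% of the divisor.

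Genes at 1 CPM or more in at least 3 libraries were tested on log2(CPM + 0.1) with limma 3.58.1 (variance trend) in R 4.3.3, with terms for line and shRNA over 27 libraries, within each line (9 libraries), for the interaction, and between lines in the 9 controls. edgeR 4.0.16 was an alternative, as were pseudocounts of 1 and 0.01, no filter, other scalings, no variance trend, a replicate block, only the 18 libraries compared, and leaving out a replicate, a library or a line. Leaving out HBL1 shSIRT3-1 replicate 3 was added after seeing the data. The models were tested on simulated counts.

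Members, lists and tests were chosen with earlier results of these data known. Values in every library are given for members called with both shRNAs over the lines or in a line, the member of each role that changed most, and MAP1LC3B, SQSTM1, ULK1 and ATG5, and in controls for the member of each role that differed most. Other calls are named with their change. Gene coordinates are GENCODE on hg19. Python 3.11.15 drew the figures.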

Additional observations from a re-analysis of the deposited data

Results flagged for a closer look

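The responses of 19 of 41 members differed between lines by the interaction test of limma (F test, adjusted p over all genes), against 41.8% of all genes. That count was 0 without replicate 1 and 8 without replicate 2, against 348 of 12860 and 2011 of 12804 genes tested. In the initiation and PI3K complexes the 19 members included BECN1 (adjusted p = 0.0011), ULK2 (0.0012), PIK3C3 (0.0013), ULK1 (0.0013), RB1CC1 (0.0068) and ATG13 (0.017). With shSIRT3-2 BECN1 was at -0.58 in HBL1 and at 0.21 and -0.04 in Karpas422 and OCI-LY1, and PIK3C3 at -0.78, -0.23 and 0.11. Among the conjugation and lipid transfer genes they were ATG4B (0.0023), ATG4D (0.0038), ATG2A (0.0041), ATG4C (0.021), ATG3 (0.022) and ATG4A (0.022). With shSIRT3-1 ATG4B was at 0.55 in HBL1, where replicate 3 was at 67.1 CPM against 37.1 and 36.2, and at -0.35 and -0.46 in Karpas422 and OCI-LY1.

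Among the LC3 family, receptors and fusion genes they were GABARAP (0.0027), MAP1LC3A (0.0095), OPTN (0.03), BNIP3L (0.035), TAX1BP1 (0.039), CALCOCO2 (0.041) and STX17 (0.043). With shSIRT3-2 MAP1LC3A was at -1.18 in HBL1 and 0.57 in Karpas422.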

How the results depend on the processing

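Counts of members called between control cells stayed within 1.5 times under every alternative. The count with shSIRT3-1 over the 3 lines (8) was 5 without HBL1 and 4 to 9 without a replicate or library. Over all genes (1701) it was 1073 without HBL1 and 1501, 1211 and 1491 without replicates 1, 2 and 3. With shSIRT3-2 the member count (2) was 4 without OCI-LY1, 1 without HBL1 and 2 to 3 without a replicate. Over all genes (1760) it was 2120 and 1219 without those lines and 1589, 985 and 1687 without replicates 1, 2 and 3. Members called with both shRNAs (2) were 1 without Karpas422, 0 without HBL1, and 0 to 3 without a replicate. Over all genes (665) there were 610 and 419 without those lines and 557, 320 and 681 without replicates 1, 2 and 3. Between the shRNAs the member count (2) was 1 without Karpas422, 4 without HBL1 and 2 to 3 without a replicate. Over all genes (1480) it was 1725 and 862 without those lines and 1132, 1067 and 1020 without replicates 1, 2 and 3. Differences between lines (19) numbered 0 to 21 without a replicate, while those over all genes (5471) numbered 348 to 4709. With shSIRT3-1 in Karpas422 the member count (8) was 4 under quantile normalization, 5 with edgeR and 2 to 8 without a replicate. Over all genes (1793) it was 1713, 1729, and 761, 1066 and 1775 without replicates 1, 2 and 3. With shSIRT3-2 the member count (2) was 1 to 4 without a replicate. Over all genes (1684) it was 579, 930 and 1862. With shSIRT3-1 in OCI-LY1 the member count (2) was 1 with no filter, 1 with no variance trend and 0 to 1 without a replicate or library. Over all genes (504) it was 436, 494, and 1, 92 and 0 without replicates 1, 2 and 3. With shSIRT3-2 the member count (1) was 0 to 1 without a replicate. Over all genes (718) it was 141, 338 and 0. In HBL1 the member count was 2 to 13 with shSIRT3-1 (13) and 1 to 12 with shSIRT3-2 (7) without a replicate. Over all genes with shSIRT3-1 (3280) it was 506, 1284 and 3331 without replicates 1, 2 and 3. With shSIRT3-2 (2786) it was 334, 603 and 3176 over all genes. Fits within a line without a replicate hold 2 libraries a group. Of 45 member calls, 17, 19 and 39 were kept without replicates 1, 2 and 3, 41 at a pseudocount of 1, 34 under quantile normalization and 37 with edgeR. The causes were not tested.

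Replicate numbers are shared across groups, with no source for what they mark. Same-numbered libraries of a line deviated together (mean r 0.32, 26 of 27 pairs over 0.1, lowest 0.01), and 22 of 27 libraries correlated best with their own number. With a replicate block, 44 of 45 member calls stood. The count between lines was 25, against 7695 of 13076 genes, and that with shSIRT3-2 in HBL1 was 10, against 3234 of 11862.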
